A study of Homo sapiens with 8 samples.

Results

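Long intergenic non-coding RNAs (lincRNAs) are transcripts without an annotated protein that are made from loci between protein-coding genes. The set described here holds the 92 lincRNAs that were counted well over libraries of PANC-1 cells with a control siRNA or an siRNA against BARD1. They were chosen by their measured counts: the gene table had to class them as lincRNA, and the mean raw count over all libraries had to reach 100. Host genes of microRNAs and small nucleolar RNAs, recognised by name, and GAS5 were left out, which removed 8 lincRNAs above the threshold. The 92 members came from 7629 lincRNAs and 58735 genes in the table. All 92 members passed the filter on low counts.

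PANC-1 is an established human pancreatic ductal carcinoma line. The design asked what silencing BARD1, the RING-domain partner of BRCA1, does to its transcripts. Of 8 poly-A selected libraries, 4 were from cells with a scrambled siRNA (siSCR, genotype labelled WT). The other 4 were from cells with an siRNA against BARD1 (siBARD1, genotype labelled BARD1 knockdown). All were harvested 48 h after transfection, with replicates numbered 1, 3, 4 and 5. Only transient knockdown in 1 cell line was examined, and the labels do not say whether replicates were separate cultures, so p-values reflect variation among libraries that could be technical.

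LincRNAs are mostly transcribed by RNA polymerase II, capped and often spliced, like messenger RNAs. Some act as scaffolds in the nucleus, such as NEAT1 in paraspeckles and MALAT1 in nuclear speckles. Others, such as NORAD, bind proteins in the cytoplasm, and many are transcribed beside a protein-coding gene without a known role of their own.

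Library totals ran from 17816547 to 28590710 assigned counts. BARD1 itself stood at 19.5 ± 2.33 CPM (counts relative to the TMM-scaled library total; SD, n = 4) in siSCR and 3.0 ± 0.397 in siBARD1, a log2 fold change of -2.69 (SE 0.12, edgeR adjusted p = 7.41e-11). The ductal keratins KRT7, KRT8, KRT18 and KRT19 were abundant in every library, and their summed level differed without overlap, 4700 to 6630 CPM in siSCR against 2790 to 4130 in siBARD1. Summed levels of the fibroblast, immune, endothelial and acinar markers reached at most 1.59 CPM, and LUM, DCN, CDH5, INS and GCG were at 0. The part of the keratin difference in the lincRNA results was not tested.

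In siBARD1, 15 of the 92 lincRNAs were higher, 14 were lower and 63 did not pass the test (edgeR quasi-likelihood, Benjamini-Hochberg adjusted over 15287 genes, threshold 0.05). The 29 called members were 31.5% of the set, compared with 38.9% of all genes tested. In each direction they were 16.3% and 15.2%, against 18.9% of all genes called higher and 20% called lower. Among protein-coding genes 43.5% were called, and among the 439 other lincRNAs tested, which had lower counts, 13.4%. The median log2 fold change was 0.0 for the members and for all genes. With scaling by total count or by upper quartile, there were 19 higher and 11 lower members, a different balance. All genes tested moved the same way. With total-count scaling 3616 were higher and 2478 lower, and with upper-quartile scaling 3482 and 2588, against 2889 and 3057 in the main fit.

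Most changes were modest. The median size among called members was 0.47 on the log2 scale, against 0.36 among all called genes. Called or not, the median size was 0.23 for the members and 0.21 for all genes tested. The members were less counted, with a median of 8.45 CPM against 22.2, so the sizes among called genes are not matched for level. LINC01843, LINC00667 and LINC00941 fell at least 2-fold and 0 members rose that far, while 2.09% of all genes tested changed at least 2-fold in either direction. At an unadjusted p under 0.05, 19 members were higher and 20 lower, compared with 3582 and 3646 of all 15287 genes. The CPM values of the groups did not overlap for 29 members, 14 higher and 15 lower, compared with 36.1% of all genes tested. Of the members, 20 were called in the same direction in every one of 18 other fits, 10 higher and 10 lower. No such share was computed for all genes, so the calls cannot be ranked by stability against other genes.

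**Figure D1:**
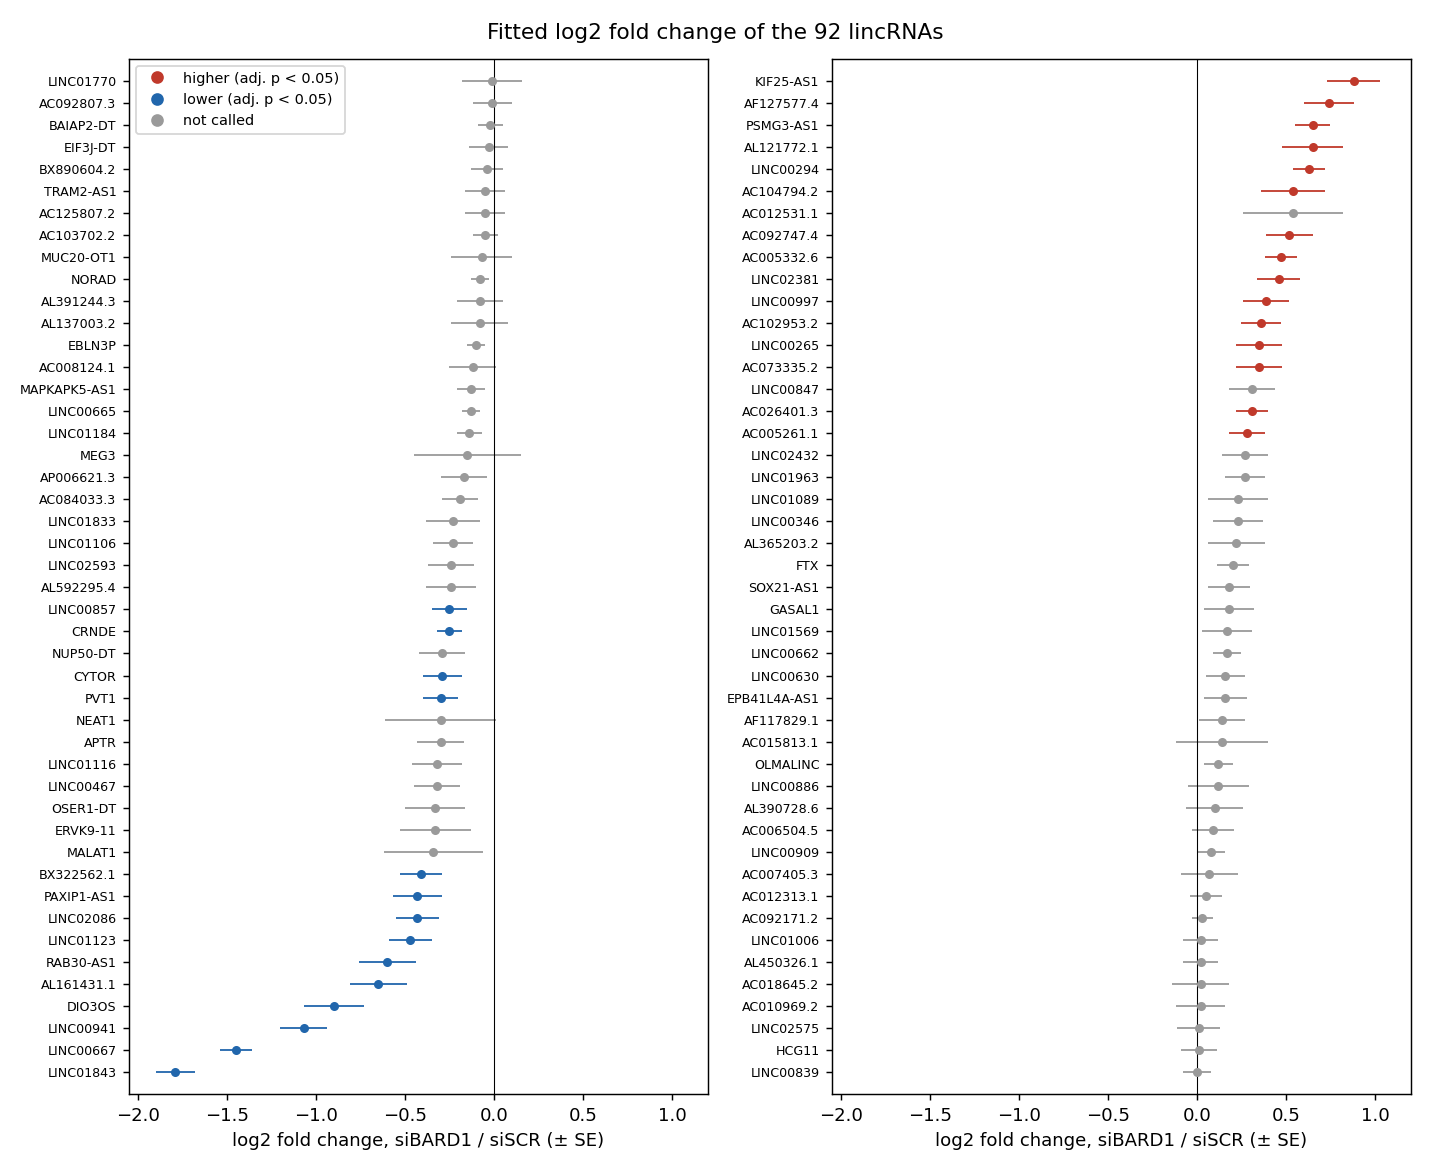
Fitted log2 fold change of each of the 92 lincRNAs, siBARD1 over siSCR, with its SE as a horizontal bar, sorted by value and split over 2 panels. Red marks the 15 called higher, blue the 14 called lower and grey the 63 not called; the 3 members past 2-fold all lie on the lower side.

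The threshold of 100 counts was passed in both groups by 78 members, of which 9 were called higher and 10 lower. Of the 3 members that fell 2-fold, 1 was among these 78, LINC00667. Another 4 reached the threshold on their siSCR libraries alone: LINC01843, LINC00941, DIO3OS and PAXIP1-AS1, all called lower. A further 10 reached it on their siBARD1 libraries alone, 6 of them called higher. Those 6 were KIF25-AS1, AF127577.4, AL121772.1, AC092747.4, AC104794.2 and LINC00265. A member near the threshold that passed on 1 group tends to differ in the direction of that group, so these 14 are part of the count by construction. The least counted members were PAXIP1-AS1 with a mean of 102.5 counts, LINC00346 with 100.2 and AC018645.2 with 100. Just outside lay AC009414.2 with 99.9, AP003486.1 with 99.2 and LINC01224 with 96.9.

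The members together took 0.158%, 0.181%, 0.196% and 0.203% of assigned counts in the siSCR libraries, in replicate order, and 0.178%, 0.187%, 0.173% and 0.170% in siBARD1. The groups overlapped (0.185% ± 0.02 and 0.177% ± 0.0074, SD, n = 4 each; exact two-sided permutation p = 0.486, smallest possible 0.0286). Without NEAT1 and MALAT1 each group had 0.14% (exact permutation p = 1.0). Counts were concentrated in few members: the most counted one held 15.4% of all member counts, the top 3 held 35.8% and the top 10 held 58.0%.

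Of the 10 most abundant lincRNAs only PVT1 passed the test, and several varied widely between replicates. NEAT1 (ENSG00000245532; chromosome 11, 65422774 to 65445540, plus strand, GRCh38), the scaffold RNA of paraspeckles, stood at 156, 298, 370 and 420 CPM in siSCR replicates 1, 3, 4 and 5. In siBARD1 it stood at 227, 317, 232 and 232 CPM. The siSCR libraries spanned the whole range of siBARD1. The fitted change was -0.30 on the log2 scale (SE 0.31, 95% confidence interval -1.06 to 0.46, edgeR adjusted p = 0.502). Without siSCR replicate 1, its lowest library, the value was -0.52 (adjusted p = 0.0548).

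MALAT1, a long nuclear RNA of nuclear speckles on the same arm of chromosome 11 (65497688 to 65506516, plus strand), had 94.6, 148, 175 and 164 CPM in siSCR and 132, 150, 102 and 75 in siBARD1. The groups overlapped, with a log2 fold change of -0.34 (SE 0.28, adjusted p = 0.396; -0.50 and 0.182 without siSCR replicate 1). MEG3, the maternally expressed RNA of the imprinted DLK1-DIO3 region, had 33.2, 60.4, 74.2 and 81.6 CPM in siSCR and 54.9, 70.6, 54.1 and 44.8 in siBARD1. The fitted change was -0.15 on the log2 scale (SE 0.30, adjusted p = 0.741; -0.36 and 0.145 without siSCR replicate 1). All 3 RNAs had their lowest siSCR value in replicate 1, and that library also had the lowest share of mitochondrially encoded counts, 1.38% against 2.18% to 3.14% in the others. The part of that library's RNA composition in these values was not tested. NEAT1, MALAT1, MEG3, AC015813.1 and AC012531.1 were the 5 members whose within-group spread lay above the 90th percentile of all genes tested.

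NORAD, a cytoplasmic RNA known for its role in genome stability, was steady by comparison. It had 251, 246, 250 and 237 CPM in siSCR and 239, 238, 238 and 218 in siBARD1 (chromosome 20, 36045622 to 36050960, minus strand). The groups overlapped, with a fitted log2 change of -0.08 (SE 0.05, 95% confidence interval -0.17 to 0.02, adjusted p = 0.202). Per length it was the most abundant member, at a mean of 44.6 FPKM (counts scaled by gene length and library total) against 12.3 for NEAT1 and 14.6 for MALAT1.

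**Figure D2:**
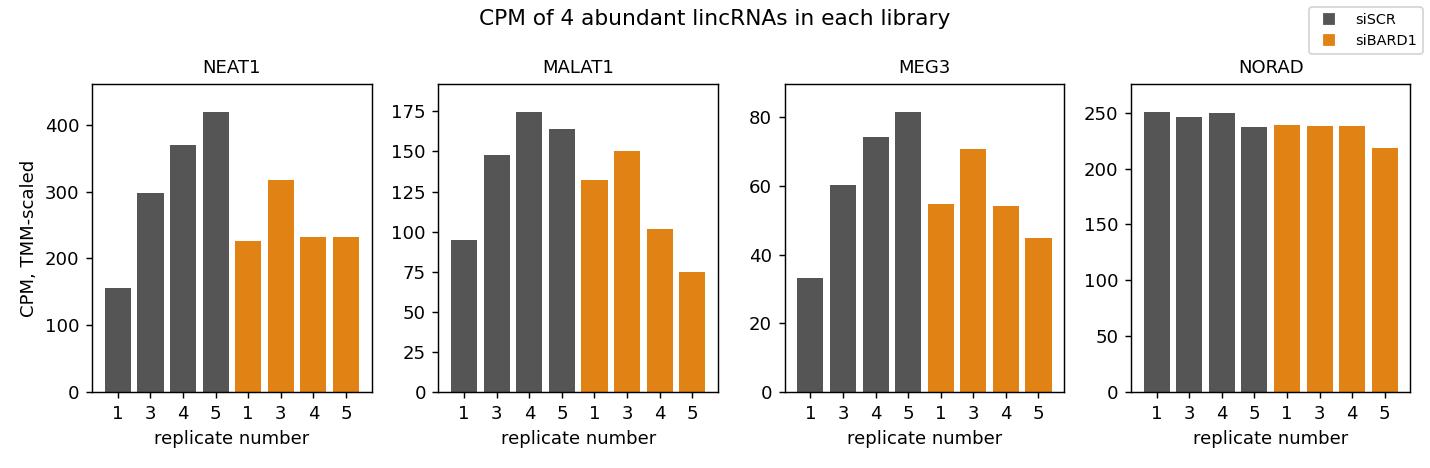
TMM-scaled CPM of NEAT1, MALAT1, MEG3 and NORAD in each library, siSCR in grey and siBARD1 in orange, with the replicate number on the horizontal axis and the vertical axes starting at 0. In siSCR, NEAT1 runs from 156 to 420 CPM while NORAD stays between 237 and 251.

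A further 5 of the 10 most abundant members did not pass. EBLN3P, a transcript from a viral-like insertion, had a log2 fold change of -0.10 (SE 0.05, adjusted p = 0.108), BAIAP2-DT had -0.02 (adjusted p = 0.872) and AC092171.2 had 0.03 (adjusted p = 0.748). LINC00665 had 50.6 to 53.3 CPM in siSCR and 45.4 to 48.8 in siBARD1, without overlap, and its adjusted p was 0.0557 (log2 fold change -0.13, SE 0.05). With limma on log2(FPKM + 1) its adjusted p was 0.0461, and DESeq2 also placed it just under the threshold. LINC00662 had 33.5 to 38.3 and 37.2 to 46.9 CPM (log2 fold change 0.17, SE 0.08, adjusted p = 0.0943). It passed without siSCR replicate 1 (adjusted p = 0.0455) and with total-count (0.0384) or upper-quartile scaling (0.0438).

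PVT1, transcribed next to the MYC oncogene and known from cancers that amplify both, was called lower. It had 22.5, 28.1, 34.4 and 30.4 CPM in siSCR and 23.6, 24.9, 22.3 and 22.8 in siBARD1, so that siSCR replicate 1 lay inside the siBARD1 range. The call rested on a log2 fold change of -0.30 (SE 0.10, adjusted p = 0.0318). MYC fell from 94.8 ± 4.57 to 58.4 ± 1.79 CPM (log2 fold change -0.70, SE 0.05, adjusted p = 2.46e-08). The PVT1 call was lost without siSCR replicate 3 (adjusted p = 0.0581), 4 (0.117) or 5 (0.0829), without siBARD1 replicate 1 (0.0590), 4 (0.0860) or 5 (0.0735), with total-count scaling (0.0670), with upper-quartile scaling (0.0628), in limma-voom (0.0523) and on log2(FPKM + 1) (0.0673) or log2(FPKM + 0.1) (0.0657).

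The steepest fall was in LINC01843 (ENSG00000251169; chromosome 5, 134506552 to 134509229, plus strand, 2 exons). It stood at 12.1, 12.3, 12.4 and 12.8 CPM in siSCR replicates 1, 3, 4 and 5 and at 3.51, 3.57, 3.30 and 3.95 in siBARD1. Every siBARD1 library lay far below every siSCR library. The fall was 3.45-fold (log2 fold change -1.79, SE 0.11, adjusted p = 2.30e-09). Its nearest protein-coding gene, JADE2, which encodes a PHD-finger protein of histone acetyltransferase complexes, lies 15083 bp away and fell by 0.24 on the log2 scale (SE 0.05, adjusted p = 0.00152).

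LINC00667 (ENSG00000263753; chromosome 18, 5237826 to 5246508, plus strand) had 24.5, 24.7, 24.4 and 25.1 CPM in siSCR and 10.4, 9.32, 8.15 and 8.40 in siBARD1. The groups were well apart, a 2.72-fold fall (log2 fold change -1.45, SE 0.09, adjusted p = 2.02e-09). A share of 25.3% of its exonic bases overlaps genes on the opposite strand, and since strandedness is not stated, its counts are less certain. LINC00941 (ENSG00000285517; chromosome 12, 30795458 to 30879268, plus strand) had 6.77, 7.02, 7.25 and 7.46 CPM in siSCR and 3.81, 3.03, 3.68 and 3.06 in siBARD1. This was a 2.10-fold fall without overlap (log2 fold change -1.07, SE 0.13, adjusted p = 7.71e-06). On log2(FPKM + 1), where values of low level per length shrink, it was -0.22 (adjusted p = 7.45e-04).

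DIO3OS and RAB30-AS1 were each called lower, as was the protein-coding gene that starts within 1000 bp on the other strand. DIO3OS, from the imprinted DLK1-DIO3 region that also holds MEG3, had 5.93, 6.96, 8.0 and 9.97 CPM in siSCR and 4.25, 3.69, 3.61 and 5.03 in siBARD1, without overlap (log2 fold change -0.90, SE 0.17, adjusted p = 3.86e-04). DIO3, an enzyme that inactivates thyroid hormone, starts 920 bp away on the other strand. It went from 4.37 ± 0.440 to 2.90 ± 1.01 CPM (log2 fold change -0.61, SE 0.20, adjusted p = 0.0250). RAB30-AS1 had 5.22, 8.29, 7.11 and 6.88 CPM in siSCR and 3.42, 4.62, 5.30 and 4.54 in siBARD1, with siSCR replicate 1 inside the siBARD1 range (log2 fold change -0.60, SE 0.16, adjusted p = 0.00687). RAB30, a small GTPase of the Golgi, starts 143 bp away and fell from 26.7 ± 1.48 to 12.9 ± 1.30 CPM (log2 fold change -1.05, SE 0.08, adjusted p = 4.95e-08).

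The other falls among the 10 steepest were of 0.65 or less on the log2 scale. AL161431.1 had 12.1 to 16.2 CPM in siSCR and 5.93 to 10.9 in siBARD1 (log2 fold change -0.65, SE 0.16, adjusted p = 0.00495). LINC01123 fell by 0.47, LINC02086 by 0.43 and BX322562.1 by 0.41 on the log2 scale, each without overlap between groups. LINC01123 and LINC01106 share 2256 aligned bases at 99.5% identity, so the split of reads between them is uncertain; LINC01106 had -0.23 (adjusted p = 0.114). PAXIP1-AS1 fell by 0.43 (adjusted p = 0.0265), but lost the call without siSCR replicate 5 (adjusted p = 0.0961) and without siBARD1 replicate 1 (0.0501), 3 (0.0565) or 4 (0.0944).

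Among called lincRNAs with a described role in cancer cells, CRNDE and CYTOR were lower. CRNDE, named for its expression in colorectal neoplasia, had 21.8 to 24.3 CPM in siSCR and 18.5 to 20.3 in siBARD1, without overlap (log2 fold change -0.25, SE 0.07, adjusted p = 0.0107). CYTOR, known as a regulator of the cytoskeleton, had 11.8 to 14.7 and 9.18 to 12 CPM with overlap (log2 fold change -0.29, SE 0.11, adjusted p = 0.0455). It shares 2254 bases at 99.2% identity with MIR4435-2HG, so the split of reads between them is uncertain. The CYTOR call was lost without siSCR replicate 3 (adjusted p = 0.0831) or 4 (0.163), without siBARD1 replicate 1 (0.128), 4 (0.0604) or 5 (0.114), and with total-count scaling (0.0883), upper-quartile scaling (0.0788), no low-count filter (0.0557), limma-voom (0.0513), log2(FPKM + 1) (0.119) or log2(FPKM + 0.1) (0.149).

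FTX, a lincRNA of the X-inactivation centre, had 11.3 to 13.8 CPM in siSCR and 13.3 to 15.3 in siBARD1 (log2 fold change 0.20, SE 0.09, adjusted p = 0.0931). It passed without siSCR replicate 4 (0.0488) and with total-count (0.0407) or upper-quartile scaling (0.0491), and 44.3% of its exonic bases overlap genes on the other strand. EPB41L4A-AS1 had 0.16 (adjusted p = 0.307), with 49.6% of its bases in such an overlap. LINC00467 had 5.11 to 6.74 CPM in siSCR and 4.20 to 4.82 in siBARD1, without overlap (log2 fold change -0.32, SE 0.13, adjusted p = 0.0704; 0.0494 without siSCR replicate 5).

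The rises were below 2-fold throughout. KIF25-AS1 (ENSG00000229921; chromosome 6, 167992822 to 167997077, minus strand) had the largest, from 4.80, 3.48, 4.07 and 3.54 CPM in siSCR to 8.88, 6.13, 7.19 and 7.23 in siBARD1. The groups did not overlap, and the fold was 1.83 (log2 fold change 0.88, SE 0.15, adjusted p = 1.90e-04). KIF25, the kinesin gene it overlaps, was barely counted at 0.550 ± 0.349 and 0.444 ± 0.201 CPM. AF127577.4 followed with 4.37 ± 0.319 and 7.31 ± 1.22 CPM (log2 fold change 0.74, SE 0.14, adjusted p = 5.91e-04), and 27.7% of its exonic bases overlap other genes on its own strand.

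PSMG3-AS1 had 7.06, 6.44, 6.92 and 6.09 CPM in siSCR and 10.6, 9.94, 9.84 and 11.4 in siBARD1, a 1.57-fold rise without overlap (log2 fold change 0.65, SE 0.10, adjusted p = 1.13e-04). LINC00294, a single-exon transcript inside the span of TCP11L1 on the same strand, had 9.44, 9.57, 9.59 and 10.1 CPM in siSCR and 15.4, 12.9, 16.0 and 15.4 in siBARD1. It rose 1.54-fold (log2 fold change 0.63, SE 0.09, adjusted p = 5.36e-05), and TCP11L1 rose by 0.43 on the log2 scale (SE 0.06, adjusted p = 4.61e-05). AL121772.1 rose from 3.76 ± 0.769 to 5.86 ± 0.969 CPM (log2 fold change 0.65, adjusted p = 0.00575).

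AC092747.4, a single-exon transcript within the span of MED21 on the same strand, rose from 4.72 ± 0.526 to 6.81 ± 0.609 CPM (log2 fold change 0.52, SE 0.13, adjusted p = 0.00406). MED21, a subunit of the Mediator complex, rose by 0.35 (SE 0.06, adjusted p = 2.57e-04). AC005332.6 rose from 11.9 ± 1.55 to 16.5 ± 0.560 CPM (log2 fold change 0.47, SE 0.09, adjusted p = 7.99e-04), with 48.4% of its bases under the opposite-strand pseudogene LRRC37A16P. LINC02381, near the HOXC cluster, rose from 7.44 ± 0.886 to 10.2 ± 1.04 CPM (log2 fold change 0.46, SE 0.12, adjusted p = 0.00493). Its span overlaps that of SMUG1 on the other strand, which had 0.08 (SE 0.07, adjusted p = 0.362). AC104794.2 (log2 fold change 0.54, adjusted p = 0.0265) lost its call without siSCR replicate 3 (0.0591) or 5 (0.0822) or siBARD1 replicate 1 (0.102). LINC00997 (log2 fold change 0.39, adjusted p = 0.0267) lost its call without siSCR replicate 3 (0.0603) or 5 (0.0897) or siBARD1 replicate 1 (0.0788) or 3 (0.0661).

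The remaining 5 rises were small: AC026401.3, AC005261.1, AC102953.2, AC073335.2 and LINC00265 had log2 fold changes between 0.28 and 0.36. Stretches of 545 to 768 bases of LINC00265 match other genes at 95.1% to 97.8% identity, so its counts are less certain. The remaining fall was in LINC00857, at -0.25 (SE 0.10, adjusted p = 0.0493). The 63 members that did not pass ranged from MALAT1 at -0.34 to AC012531.1 at 0.54. AC012531.1 had 3.72, 3.94, 5.75 and 8.40 CPM in siSCR and 10.9, 8.08, 7.33 and 5.44 in siBARD1, with wide overlap (SE 0.28, adjusted p = 0.169).

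**Figure D3:**
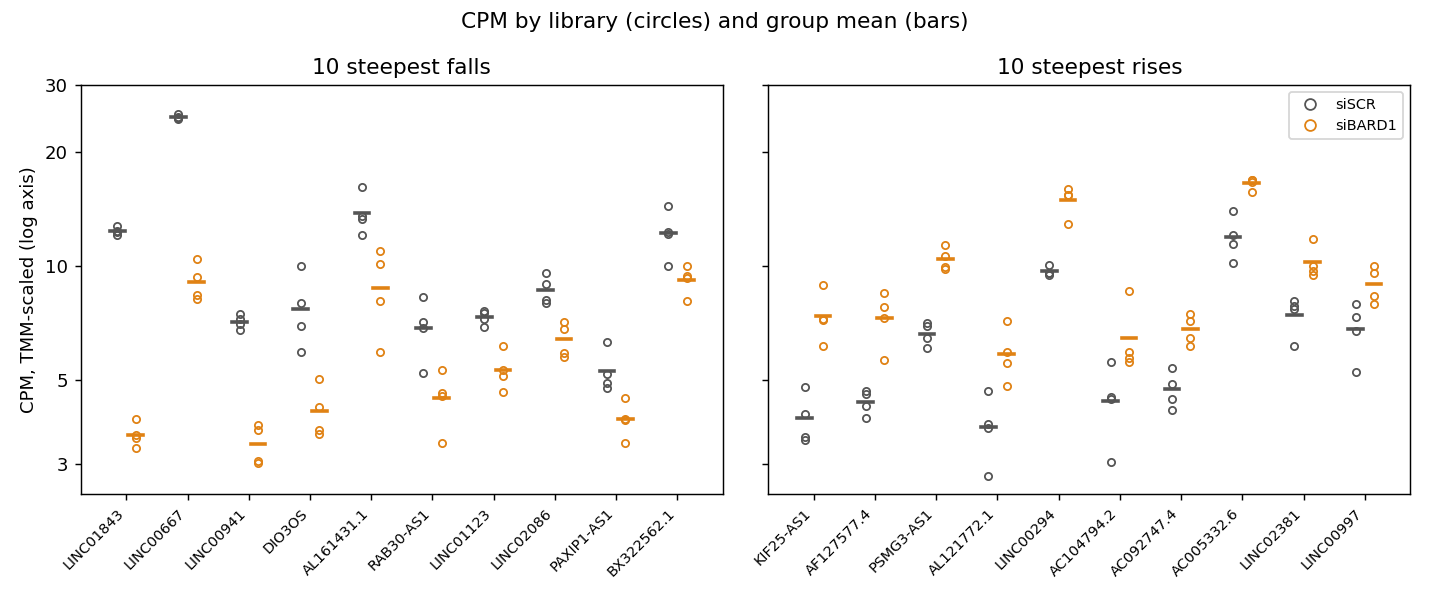
TMM-scaled CPM on a log axis for the 10 steepest falls (left) and the 10 steepest rises (right) among called lincRNAs; circles are libraries, bars group means, grey siSCR and orange siBARD1. LINC01843, LINC00667 and LINC00941 show the widest gaps, and among the rises no group mean moved 2-fold.

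An earlier search of these data linked falls in protein-coding genes to a 7-base sequence in their transcripts, so its presence in the lincRNAs is a description and not independent support. All annotated transcripts of each member were searched for CTACCAG on the transcribed strand only. It was present in 13 of 92 members (14.1%, 22 copies), in 8.66% of the other lincRNAs tested and in 30.5% of protein-coding genes. The median exonic lengths were 3333, 1792 and 5109 bases, so these shares are not length-matched. The sites below are from LINC00667 and LINC00941, which fell, and from NORAD and HCG11, which carry near-identical sites and did not pass the test. The sequence is in capitals, with 11 flanking bases on each side, 5′ to 3′ on the transcript, from GENCODE 29 (GRCh38).
LINC00667, chr18:5239026-5239054, plus strand: ggccctggccaCTACCAGgaaaaagtatt
LINC00667, chr18:5244542-5244570, plus strand: ctttactcagtCTACCAGtagaaatgtca
LINC00941, chr12:30801815-30801843, plus strand: caaccgtccaaCTACCAGacattgaccat
LINC00941, chr12:30805033-30805061, plus strand: agaaattccttCTACCAGataccctaaat
LINC00941, chr12:30809490-30809518, plus strand: attaaaacataCTACCAGagaaaataact
LINC00941, chr12:30811286-30811314, plus strand: ccactacacacCTACCAGaatgactaaaa
NORAD, chr20:36047746-36047774, minus strand: caaagggctttCTACCAGtgtccagtgtg
HCG11, chr6:26524885-26524913, plus strand: caaagggctttCTACCAGtgtccagtgtg
NORAD, chr20:36050297-36050325, minus strand: tggtcttcattCTACCAGactttgctgtc
HCG11, chr6:26522343-26522371, plus strand: tggtctccgtaCTACCAGaccttgctgtc

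Of the 13 members with the sequence, 0 were higher, 5 were lower and 8 did not pass, with a median log2 fold change of -0.12. Of the 79 without it, 15 were higher, 9 were lower and 55 did not pass, with a median of 0.02. Part of this contrast is by construction. The 6 higher members that reached the count threshold on siBARD1 alone are all among the 79. LINC01843, DIO3OS and PAXIP1-AS1, which reached it on siSCR alone, are among the 79 too, and LINC00941 is among the 13. Among all genes tested, 18.9% were higher and 20% lower. Members with and without the sequence were not matched: the median exonic length was 6652 against 3231 bases and the median level 11.3 against 7.89 CPM. The 5 lower carriers were LINC00667, LINC00941, AL161431.1, LINC02086 and CYTOR. LINC01843, the steepest fall of all, does not hold the sequence in its annotated transcript. Presence did not go with a fall in every case: FTX held 3 copies, and NORAD, HCG11 and MUC20-OT1 held 2 each without passing the test. NORAD and HCG11 align over 4661 bases at 90.5% identity. HCG11 stood at 9.71 ± 0.371 CPM in siSCR and 9.76 ± 0.556 in siBARD1 (log2 fold change 0.01, SE 0.10, 95% confidence interval -0.19 to 0.21). Members with 1 copy had 3 lower of 7, and those with 2 or more had 2 lower of 6.

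**Figure D4:**
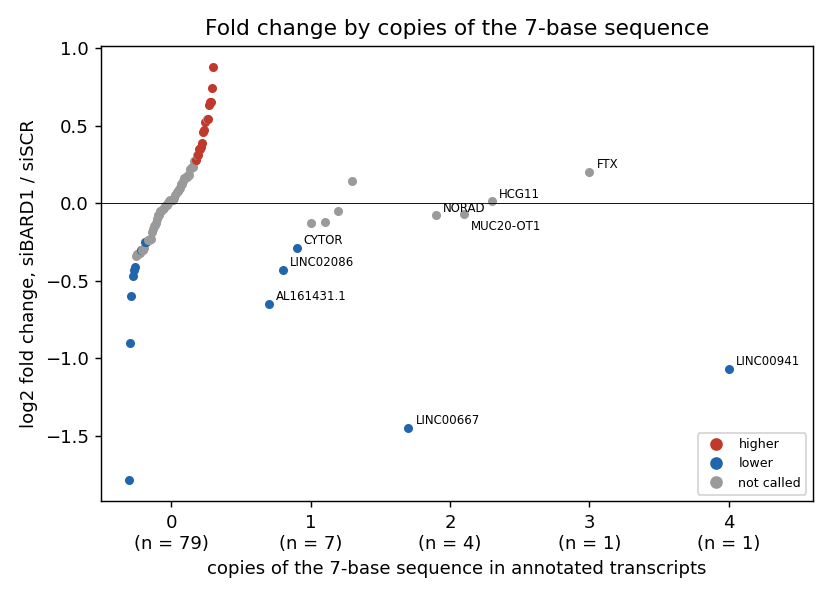
Log2 fold change of each lincRNA, siBARD1 over siSCR, by the number of copies of the 7-base sequence in its annotated transcripts; points are lincRNAs, coloured by call and spread sideways by value. The steepest fall lies among the 79 members with 0 copies, and the 4 members with 2 copies range from LINC00667 at -1.45 to HCG11 at 0.01.

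The nearest tested protein-coding gene was found for each member, which gave 89 distinct genes. Over the 92 pairs the neighbour was called higher in 22 and lower in 18, against 43.5% of all protein-coding genes called in either direction. In 12 of the 40 pairs with a called neighbour the lincRNA was called too, a share near that among all members (29 of 92). The direction was the same in 10 of these 12, and no such share was computed for neighbouring genes at large. The 2 opposite pairs were AC005332.6 with KPNA2, an importin that fell by 0.17 on the log2 scale, and LINC00941 with CAPRIN2, an RNA-binding protein that rose by 0.67. Other pairs called in the same direction included LINC01123 with MALL (-0.37), LINC00997 with KBTBD2 (0.26), AC026401.3 with NDE1 (0.18) and AC102953.2 with INTS1 (0.12). Reads from overlapping neighbours cannot be told apart where strand is unknown. LINC00294, AC092747.4 and AC026401.3 overlap the span of their neighbour on the same strand, where a known strand would not separate the reads either.

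In 28 of the 40 pairs with a called neighbour the lincRNA did not pass, a share near that among all members (63 of 92). DDAH1, an enzyme that breaks down methylated arginine, rose by 1.11 on the log2 scale (SE 0.04), from 269 ± 7.54 to 578 ± 14.9 CPM. AC092807.3, which lies within the span of DDAH1 on the same strand and starts 113 bp from it, had 9.35 ± 1.02 and 9.34 ± 0.466 CPM (log2 fold change -0.01, 95% confidence interval -0.23 to 0.22). AZIN1, an antizyme inhibitor of polyamine synthesis, fell by 1.09 (SE 0.04), while GASAL1 beside it had 0.18 (SE 0.14, adjusted p = 0.330). For 14 members the neighbour starts within 1000 bp on the other strand and runs away from the lincRNA without overlap. Of these 14, 0 were higher, 4 were lower and 10 did not pass, beside 18.9% higher and 20% lower among all genes. DIO3OS and PAXIP1-AS1, both among the lower ones, reached the count threshold on siSCR alone. Only DIO3OS and RAB30-AS1 among the 14 had a neighbour called in the same direction. Annotated transcripts of both neighbours, DIO3 and RAB30, hold the 7-base sequence, as do 30.5% of protein-coding genes tested. Among the other neighbours of the 14, BAIAP2, TRAM2 and PAXIP1 hold it too, without such a shared call. The part of the sequence or of the start distance in these falls was not tested. KIF25-AS1 and PSMG3-AS1, both called higher, also start within 1000 bp of an opposite-strand neighbour but overlap it, and so are not counted here. The same holds for LINC00909, MAPKAPK5-AS1 and LINC01006, which did not pass.

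**Figure D5:**
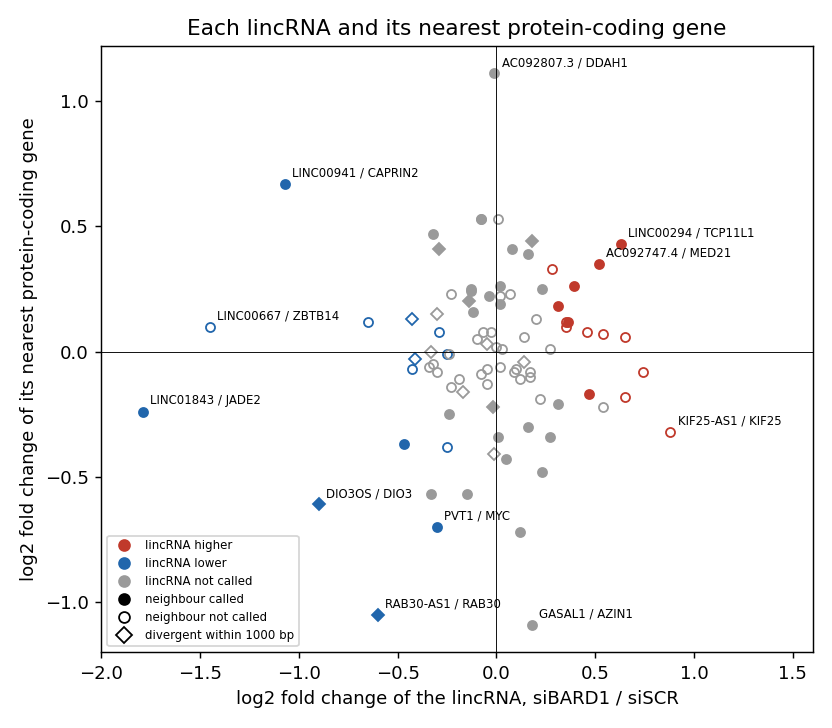
Log2 fold change of each lincRNA (horizontal) against that of its nearest tested protein-coding gene (vertical), siBARD1 over siSCR. Colour gives the call of the lincRNA, filled points a called neighbour and diamonds a divergent start within 1000 bp; RAB30-AS1 and DIO3OS lie lower left with their neighbours, while DDAH1 and AZIN1 moved beside lincRNAs near 0.

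Members without a symbol of their own, known by a clone name, were 33 of the 92, of which 9 were higher and 2 lower. The 59 with other names had 6 higher and 12 lower. Part of this contrast is by construction. AF127577.4, AL121772.1, AC092747.4 and AC104794.2, clone-named and called higher, reached the count threshold on siBARD1 alone. So did KIF25-AS1 and LINC00265, called higher among the other names. LINC01843, LINC00941, DIO3OS and PAXIP1-AS1, called lower among the other names, reached it on siSCR alone. Chromosome 7 held the most members, 10, with 5 higher and 1 lower, and was named after the values of all chromosomes were seen. Among all genes tested, 18.9% were higher and 20% lower. A single annotated exon was the most that 25 members had, and 9 members had a copy of at least 500 bases at 95% identity elsewhere in the genome. Without the 10 members that overlap other exons over 20% of their length on either strand, 13 were higher and 12 lower.

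Genes for proteins that work with these RNAs moved in both directions. So did all genes tested, of which 18.9% were called higher and 20% lower. Of 25 paraspeckle protein genes tested, 5 rose and 11 fell, with a median log2 fold change of -0.09 against 0.0 for all genes. EWSR1, an RNA-binding protein of the FET family, fell from 309 ± 30.2 to 109 ± 9.81 CPM (log2 fold change -1.50, SE 0.08, adjusted p = 3.05e-09), and ZNF24, a zinc-finger protein, rose by 0.46 (SE 0.05). The core paraspeckle proteins NONO and SFPQ each had -0.09, with adjusted p of 0.119 and 0.247. Of 20 nuclear speckle genes, 5 rose and 4 fell (median -0.05), led by the splicing kinase CLK1 at 0.46 and LUC7L3 at -0.24.

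Most genes on the lists of factors that end or degrade nuclear non-coding transcripts did not pass the test. Of 20 genes of the nuclear RNA exosome and its adaptors, 2 rose and 5 fell (median -0.06), among them the exosome subunit EXOSC2 at -0.51 (SE 0.08) and the adaptor RBM7 at 0.21 (SE 0.07). Of 19 Integrator and early termination genes, 2 rose and 6 fell (median -0.05), with the Integrator subunits INTS7 at -0.80 (SE 0.05) and INTS2 at 0.41 (SE 0.06). These counts stand beside 18.9% higher and 20% lower among all genes.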

How the data were processed

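Poly-A selected RNA of 8 libraries was analysed. The authors deposited whole-number read counts per gene and FPKM values per gene. Per the submitters' processing notes, fastp, HISAT2 (2.0.5) and featureCounts were used; their settings were not found in the sources used. The notes name GRCh37 and hg19, yet all 58735 gene coordinates equal those of GENCODE 29 on GRCh38, used here; the alignment build is not settled. Per the labels' protocols, either a strand-specific or an unstranded library was made.

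Counts were fitted with edgeR (4.0.16, R 4.3.3): filterByExpr, TMM scaling, robust quasi-likelihood test with group as the only term, adjusted by Benjamini-Hochberg over 15287 genes at 0.05. The fit was tested on simulated data, with 47 to 50 genes changed at each of 4 folds among 15107. It called 35% of 1.25-fold, 74% of 1.5-fold, 85% of 2-fold and 98% of 4-fold changes. Of its 156 calls, 16 were false, so small changes can be missed and some calls can be false. SEs are the log2 fold change over the root of F. CPM uses TMM-scaled totals. Shares were compared by exact permutation (two-sided, 70 assignments). Copies were found with blastn (2.17.0). Replicate pairs differed beyond sampling noise (chi-square per gene 3.98 to 16.1), and no library was a duplicate. The 35 named members were the 10 most abundant, the 10 steepest called in each direction and lincRNAs with a known role; others were named after their values were seen. In each protein list, the largest called change in each direction was named, and NONO and SFPQ after seeing values; 1 list is not reported here. Members and lists were chosen with earlier results of these data known. The fits were repeated with total-count, upper-quartile and RLE scaling, other count filters, DESeq2 (1.42.0), limma-voom and limma (3.58.1) on log2(FPKM + 1) and log2(FPKM + 0.1), a replicate block, each library left out in turn, a threshold of 0.01 and other count minima.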

Additional observations from a re-analysis of the deposited data

Results flagged for a closer look

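In 6 cases 1 library of a group of 4 stood apart from the other three, with a gap of over 0.83 of the group's range. Both groups of each of the 35 named lincRNAs and of BARD1 were checked, 72 groups in all, and chance marks about 1 in 20.

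NEAT1 stood at 317.3 CPM in siBARD1 replicate 3, against 226.8 to 232.2 in the other siBARD1 libraries. NORAD stood at 218.4 CPM in siBARD1 replicate 5, against 237.6 to 238.9. LINC00662 stood at 46.94 CPM in siBARD1 replicate 5, against 37.24 to 38.56. AC092171.2 stood at 32.94 CPM in siBARD1 replicate 1, against 35.12 to 35.49. AC104794.2 stood at 8.589 CPM in siBARD1 replicate 1, against 5.57 to 5.94, and without that library its adjusted p was 0.102. LINC00467 stood at 4.197 CPM in siBARD1 replicate 1, against 4.807 to 4.815.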

How the results depend on the processing

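Of the 92 lincRNAs, 15 were called higher, 14 lower and 3 at least 2-fold changed. At an adjusted p under 0.01 there were 8 higher and 8 lower, beside 1936 higher and 2167 lower of all 15287 genes tested. Among 171 lincRNAs with a mean of at least 50 counts, 23 were higher, 23 lower and 7 changed 2-fold; among 42 with at least 200, 6, 7 and 1. On log2(FPKM + 1), a scale that shrinks low values, 1 member changed 2-fold. The median log2 fold change, 0.0, was 0.04 with upper-quartile and 0.05 with total-count scaling, as for all genes. Leaving out 1 library gave 10 to 14 higher, 10 to 15 lower and 3 to 4 changed 2-fold, and a difference in the share of counts of -0.0165 to -0.00166 percentage points. With the replicate number as a block, 16 were higher, 15 lower and 3 changed 2-fold, and LINC00665 was called (adjusted p = 0.0461). Residuals of same-numbered libraries correlated at 0.139, 0.129, 0.034 and -0.032, so the numbers were not taken as pairs, and not every library correlated best with its own number. Of the 35 named lincRNAs, 7 lost their call under some setting and 4 gained one. Among the same 35, the sign of 2 that were not called changed: BAIAP2-DT (-0.02) was 0.02 to 0.04 under 4 settings, and MEG3 (-0.15) was 0.01 without siSCR replicate 5. Depth limits the precision of members near 100 counts, and of log2(FPKM + 1) values below 1 FPKM, such as LINC00941.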
